A study of Mus musculus with 8 samples.

Results

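Sox10, Mbp, Mal, Cdh19, Ngfr and Th, 6 marker genes of Schwann cells and nerve, were followed in brown adipose tissue of mice lacking the histone demethylase Lsd1 in brown fat cells. They were picked by symbol from the 23372 gene symbols of the count table, and each symbol was represented by its transcript row with the highest total over the 8 libraries. The knockout mice carried floxed Lsd1 alleles and Cre recombinase driven by Ucp1, a gene of brown and beige fat cells, so the deletion was not aimed at Schwann cells or neurons. The controls carried the floxed alleles and were not described as having the Cre. All mice were 10 weeks old and of the C57BL/6 N background. There were 4 knockout libraries (512, 513, 515 and 516) and 4 control libraries (511, 514, 517 and 518), 1 per numbered sample. Nothing says how the samples were taken beyond these labels, and every p-value reflects sample-to-sample spread, which may be partly technical.

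Brown fat makes heat under the command of sympathetic nerves, whose axons release noradrenaline onto the adipocytes. The axons are accompanied by Schwann cells, glia that either wrap a single axon in myelin or hold several thin axons without it. The nerve cell bodies lie outside the fat pad in sympathetic ganglia, so mRNA of the pad holds the transcripts of the glia far more than those of the neurons. In a bulk sample, fewer cells of a type and less RNA per cell cannot be told apart. Sox10 is the transcription factor that sets Schwann cell identity, Cdh19 is a cadherin of the Schwann cell lineage, and Ngfr is the low-affinity neurotrophin receptor p75, also made by some mesenchymal cells. Mbp is myelin basic protein, Mal is a small tetraspan proteolipid of myelin and of apical sorting membranes that is also made by T cells and epithelia, and Th is tyrosine hydroxylase, the rate-limiting enzyme of catecholamine synthesis.

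Mal was the single member called, and it was higher in knockout tissue. Sox10, Cdh19, Ngfr and Mbp were not called, and Th was too low for the main test. Levels are given as CPM, counts scaled to library size with edgeR's TMM factors, and fold changes as knockout over control from edgeR's quasi-likelihood test with Benjamini-Hochberg adjustment over 14178 genes. Of the 6 members 5 passed the filter on low counts and 1 of these 5 was called. At the same threshold of 0.05, 34.4% of all genes tested were called, 15.4% being higher and 18.9% lower in knockouts. The tissue carried the defining brown fat marker Ucp1, at 1377 ± 161.4 CPM in knockouts and 4481 ± 1200.2 CPM in controls (SD, n = 4 each). The targeted gene Kdm1a, which encodes Lsd1, was at 12.2 to 14.0 CPM in knockouts and 33.3 to 36.9 CPM in controls. Summed over all transcript rows the libraries held 33011022 to 38756920 counts, and no library was left out.

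The promoter windows of Mal and Th are shown because Mal is the member that was called and Th the one with the largest ratio between the groups. Each spans the start annotated by RefSeq on GRCm38.p6 and is read on the strand of the gene. Mal lies at chr2:127656646-127656945 and Th at chr7:142899946-142900245, both on the minus strand. Capitals mark the matches to the motifs searched.
Mal: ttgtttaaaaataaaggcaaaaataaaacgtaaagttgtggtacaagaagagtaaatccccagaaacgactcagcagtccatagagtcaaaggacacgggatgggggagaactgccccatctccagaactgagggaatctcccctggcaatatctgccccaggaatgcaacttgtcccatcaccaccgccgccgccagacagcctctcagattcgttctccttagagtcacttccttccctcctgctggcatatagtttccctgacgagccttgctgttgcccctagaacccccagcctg
Th: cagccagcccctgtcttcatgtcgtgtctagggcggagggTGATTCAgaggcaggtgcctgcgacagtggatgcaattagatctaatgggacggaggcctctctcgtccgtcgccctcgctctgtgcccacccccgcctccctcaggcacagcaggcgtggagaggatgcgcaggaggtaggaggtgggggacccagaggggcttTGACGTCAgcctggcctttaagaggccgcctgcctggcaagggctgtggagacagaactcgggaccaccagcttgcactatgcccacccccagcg

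Both strands were searched for the cAMP response element TGACGTCA, the AP-1 site TGANTCA, the SOX core ACAAAG and the left and right parts, TTCAGCACC and GGACAGC, of the site of REST, a repressor known to recruit CoREST and Lsd1. The Th window held 1 cAMP response element, which begins 45 bases before the RefSeq start and is known as a control element of this gene, and 1 AP-1 site beginning 210 bases before it. This start of Th, at 142899995, lies 29 bases upstream of the start of the transcript row that was counted. These motifs occur in 1.79% and 7.81% of 32851 promoter windows of the same length. The Mal window held none of the motifs, which occur in 18.7% (SOX core), 0.371% and 6.56% (the left and right parts of the REST site) of the windows. The Ngfr window, the other one given for a member, held none either. No promoter sequence was used for Sox10, Cdh19 and Mbp.

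Mal (chromosome 2, 127633226 to 127656695, minus strand, mm10) had 20.3, 16.5, 17.8 and 16.0 CPM in knockouts 512, 513, 515 and 516, against 6.55, 7.46, 5.90 and 5.43 CPM in controls 511, 514, 517 and 518. Every knockout library stood well above the highest control library, so the groups did not overlap, as was the case for 35.5% of all genes tested. Mean levels were 17.6 ± 1.90 CPM in knockouts and 6.33 ± 0.881 CPM in controls (SD, n = 4 each). The fold change was 2.78 (95% interval 2.27 to 3.40), or 1.47 on the log2 scale (SE 0.129, edgeR adjusted p = 0.000176). By p-value Mal ranked 77 of 14178 genes, and 3.89% of the genes had a larger log2 fold change. For the shorter Mal transcript row, with the same ends, the log2 value was 1.45 with an adjusted p of 0.000205 by edgeR. In the authors' deposited table the fold of Mal was 2.75 with an FDR of 1.13e-13.

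**Figure D1:**
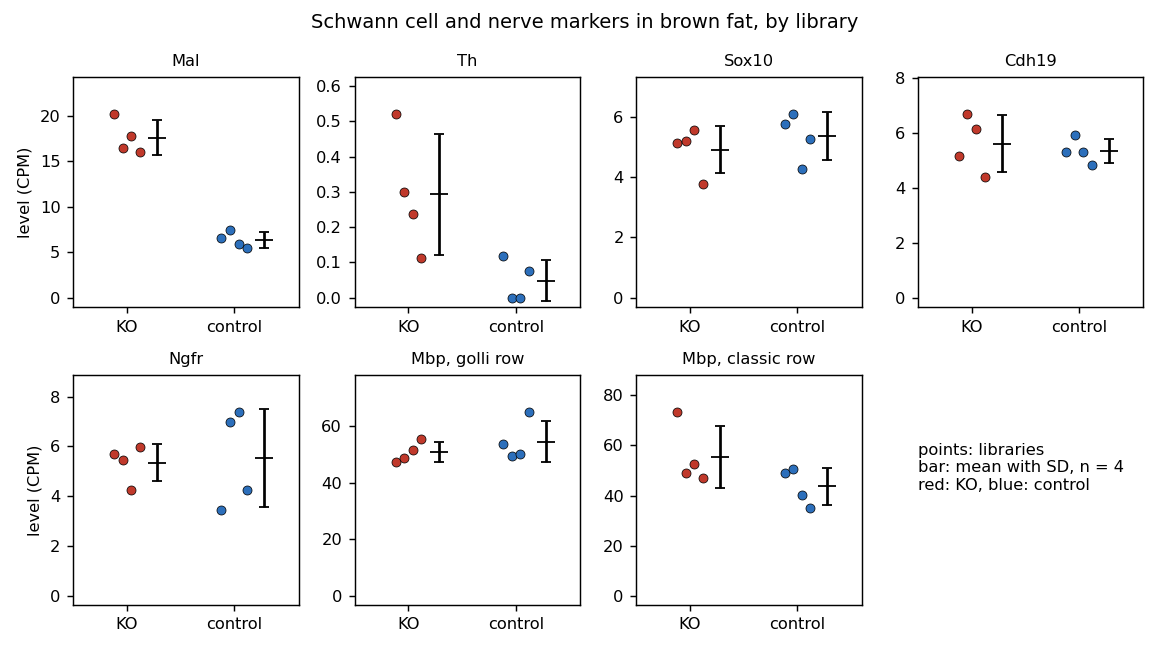
Level in CPM (vertical axis) of the 6 markers in each of the 4 knockout libraries (red, left) and 4 control libraries (blue, right), with Mbp drawn for both of its transcript rows; bars give the mean and SD. The Mal points lie at 16.0 to 20.3 CPM in knockouts and 5.43 to 7.46 CPM in controls, while the points of Sox10, Cdh19, Ngfr and both Mbp rows overlap between the groups and those of Th lie at 0.112 to 0.521 CPM in knockouts and 0 to 0.117 CPM in controls.

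Sox10 (chromosome 15, 79154913 to 79164490, minus strand) had 5.13, 5.19, 5.56 and 3.78 CPM in knockouts 512, 513, 515 and 516, against 5.77, 6.11, 4.27 and 5.28 CPM in controls 511, 514, 517 and 518. The ranges overlapped, and the lowest library was knockout 516. By edgeR, Sox10 stood at -0.13 on the log2 scale (SE 0.168, adjusted p = 0.592), with a 95% interval for the fold of 0.706 to 1.19. Cdh19 (chromosome 1, 110889195 to 110977372, minus strand) had 5.17, 6.69, 6.15 and 4.37 CPM in the same knockouts and 5.30, 5.91, 5.28 and 4.82 CPM in the same controls. The highest and the lowest value of Cdh19 were both in knockouts. By edgeR it stood at 0.07 on the log2 scale (SE 0.157, adjusted p = 0.752), with a 95% interval for the fold of 0.823 to 1.34. Without knockout 513, its highest library, the log2 fold change of Cdh19 was -0.03. The upper bounds of both intervals lie below the fold of Mal.

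Ngfr (chromosome 11, 95568821 to 95587698, minus strand) varied most between controls among the tested members. It had 5.69, 5.45, 4.26 and 5.98 CPM in knockouts 512, 513, 515 and 516, against 3.43, 6.98, 7.40 and 4.26 CPM in controls 511, 514, 517 and 518. The knockout values lay within the span of the controls, whose coefficient of variation was 35.7%, against 14.1% in knockouts. On the log2 scale Ngfr stood at -0.04 by edgeR (SE 0.252, adjusted p = 0.912), with a 95% interval for the fold of 0.655 to 1.44. The sign of this small value turned without knockout 515 (0.05), control 514 (0.09) or control 517 (0.13), and the signs of Sox10, Ngfr and the Mbp row taken by the rule also turned with other scalings between libraries.

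Mbp needs its transcripts named, because the row with the highest total is not a transcript of compact myelin. The gene (chromosome 18, plus strand) has an upstream promoter from which golli transcripts are made, known from oligodendrocyte precursors, neurons and immune cells, and a downstream promoter for the classic myelin proteins. The row with the highest total, NM_001025245 (82475123 to 82558703), starts upstream and ends short of the classic 3′ exons. In the mm10 annotation it shares at most 5.86% of its exon bases with the rows that start at the downstream promoter. It shares 17.3% with NM_010777, which spans both. The shared bases are 8.78% to 34.6% of the exon bases of the rows that start downstream, and 33.2% of those of NM_010777. The 34.6% is for NM_001025251, whose annotated model has 638 exon bases, while the counted row has 2171 bases. The upstream row had 47.4, 48.8, 51.5 and 55.5 CPM in knockouts 512, 513, 515 and 516. It had 53.8, 49.4, 50.0 and 65.2 CPM in controls 511, 514, 517 and 518. The groups overlapped, with the highest value in control 518, and edgeR gave -0.10 on the log2 scale (SE 0.0999, adjusted p = 0.447). Without control 518 it was 0.02.

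The classic Mbp row NM_001025251 (82554463 to 82585637), put in its place after the values were seen, had 73.5, 48.8, 52.5 and 46.9 CPM in knockouts 512, 513, 515 and 516. It had 48.9, 50.4, 40.3 and 34.9 CPM in controls 511, 514, 517 and 518. Knockout 512 stood above all other libraries, and the other knockouts overlapped the controls. Mean levels were 55.4 ± 12.3 CPM in knockouts and 43.6 ± 7.34 CPM in controls (SD, n = 4 each), and edgeR gave 0.35 on the log2 scale (SE 0.166, adjusted p = 0.136). The 7 rows that hold the classic 3′ exons, which share most of their reads, had log2 fold changes of 0.31 to 0.35 with none called. In the authors' deposited table these rows had FDR values of 0.197 to 0.245 and the upstream row had 0.768.

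Th (chromosome 7, 142892776 to 142899966, minus strand) was close to the limit of detection. Its deposited counts were 13, 7.5, 6 and 3 in knockouts 512, 513, 515 and 516, against 3, 0, 0 and 2 in controls 511, 514, 517 and 518. The lowest knockout library had as many counts as the highest control library, and in CPM they overlapped (0.112 in knockout 516 and 0.117 in control 511). Summed over a group there were 30 counts in knockouts and 5 in controls after rounding, a ratio of 5.79 per scaled read (95% interval 2.22 to 19.1, for counting error only). An exact two-sided permutation test of the CPM gave p = 0.0571 (n = 4 each), where the smallest p this design allows is 0.0286. Without the filter on low counts the log2 fold change was 2.43 (edgeR adjusted p = 0.0452), and in the authors' deposited table the fold was 5.36 with an FDR of 0.00568.

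Per kilobase of transcript, the scale on which genes can be set beside each other, Mal came after both Mbp rows in each group, and Sox10 and Cdh19 changed places. In knockouts the means were 25.5 CPM per kb for the classic Mbp row, 10.6 for the upstream Mbp row, 6.36 for Mal, 1.85 for Cdh19, 1.82 for Sox10, 1.58 for Ngfr and 0.169 for Th. In controls they were 20.1 for the classic Mbp row, 11.4 for the upstream Mbp row, 2.29 for Mal, 1.98 for Sox10, 1.76 for Cdh19, 1.63 for Ngfr and 0.0278 for Th. Sox10, Cdh19 and Ngfr overlapped in both groups. Mal lay at 5.78 to 7.31 CPM per kb in knockouts, clear of these 3 genes, and at 1.96 to 2.70 CPM per kb in controls, where its range met those of Sox10 and Ngfr.

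The ratio of Mal to another marker within a library does not depend on the scaling between libraries. In counts, Mal was at 3.95, 3.17, 3.19 and 4.24 times Sox10 in knockouts 512, 513, 515 and 516, against 1.14, 1.22, 1.38 and 1.03 times Sox10 in controls 511, 514, 517 and 518. The ratio of Mal to Cdh19 was 2.46 to 3.91 in knockouts and 1.12 to 1.26 in controls, and that of Mal to Ngfr was 2.68 to 4.17 in knockouts and 0.798 to 1.91 in controls. Against the classic Mbp row the ratio was 0.276 to 0.341 in knockouts and 0.134 to 0.156 in controls. None of the 5 ratios computed, including that to the upstream Mbp row, overlapped between the groups. Each gave p = 0.0286 in an exact two-sided permutation test of the log2 ratio (adjusted p = 0.0286 over the 5 ratios), the smallest p possible with 4 against 4, and the differences were 1.14 to 1.61 on the log2 scale. Mal had been chosen for this comparison after its values were seen, and the markers set against it were not called. All 5 ratios share Mal, so their p-values are not separate tests and add no support to its call.

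By profile over the 8 libraries, the genes most like Mal were Slc22a21, Slc12a4 and Them6. Their log2 CPM, each centred on its own mean, differed from that of Mal by a root mean square of 0.13, 0.14 and 0.15, against a median of 0.79 over the 13890 genes ranked. Slc22a21 is an organic cation and carnitine transporter gene and Slc12a4 encodes a potassium chloride cotransporter. Their log2 fold changes were 1.58 and 1.55, and that of Them6 was 1.42. The nearest other member to Mal, Cdh19, ranked 5215. Sox10 and Cdh19 were the closest pair of members, at a root mean square of 0.18, with Cdh19 ranking 509 in likeness to Sox10 and 13890 genes ranked. The nearest genes were U2af1, Trub2 and Osbpl5 for Sox10, Cyb5d1, Lrrc8c and Arhgef15 for Cdh19, Actr10, Klhl5 and Snrpb2 for the upstream Mbp row, and D730005E14Rik, Mybl2 and Wdr62 for Ngfr.

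Most genes of the wider Schwann cell list were not called. Of its 20 genes, which include Sox10, Cdh19 and Ngfr, 17 were tested, of which 4 were higher, 0 were lower and 13 were not called, and the median log2 fold change was 0.07, against -0.01 over all genes tested. The higher genes are 23.5% of those tested, beside 15.4% of all genes. At an unadjusted p under 0.05 edgeR had 5 higher and 0 lower, beside 21.2% of all genes higher, and DESeq2 called 5 higher and 0 lower, beside 18% of all genes higher. Erbb3, the neuregulin receptor subunit that Schwann cells depend on, had 11.4 to 17.0 CPM in knockouts and 3.47 to 8.90 CPM in controls (1.16 on the log2 scale, SE 0.259, adjusted p = 0.00906 by edgeR). S100b, a calcium-binding protein of glia that brown adipocytes also secrete, had 116.5 ± 13.7 CPM in knockouts and 85.3 ± 9.01 CPM in controls (SD, n = 4 each; log2 fold change 0.45, edgeR adjusted p = 0.00989). Ednrb, an endothelin receptor also present on vessels, rose by 0.67 (log2, adjusted p = 0.027 by edgeR), a call that ended without knockout 513, 515 or 516 (0.0596 to 0.0653).

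The fourth, Foxd3, a neural crest transcription factor singled out after its value was seen, had 1.09 ± 0.267 CPM in knockouts and 0.597 ± 0.139 CPM in controls (SD, n = 4 each; edgeR adjusted p = 0.035). That call ended without knockout 512, 513 or 516 or control 511, 514 or 518 (0.0585 to 0.0924) and by limma-voom (0.101). Scn7a, Fabp7 and Gfra3, also singled out after their values were seen, gave no call. Scn7a, an atypical sodium channel, was at 35.8 ± 4.88 CPM in knockouts and 36.7 ± 4.68 CPM in controls (SD, n = 4 each). The log2 fold changes of Fabp7, a fatty acid binding protein, and Gfra3, a receptor of the GDNF family, were 0.25 and 0.00. Of the 13 genes not called, 6 lay above 0 and 7 below, from -0.13 to 0.54. The highest of them was Ncam1, also singled out after its value was seen (edgeR adjusted p = 0.0594). Ncam1 was called by DESeq2 (0.0487), with upper quartile factors (0.0323), with library sizes alone (0.0185) and without knockout 516 (0.0278).

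**Figure D2:**
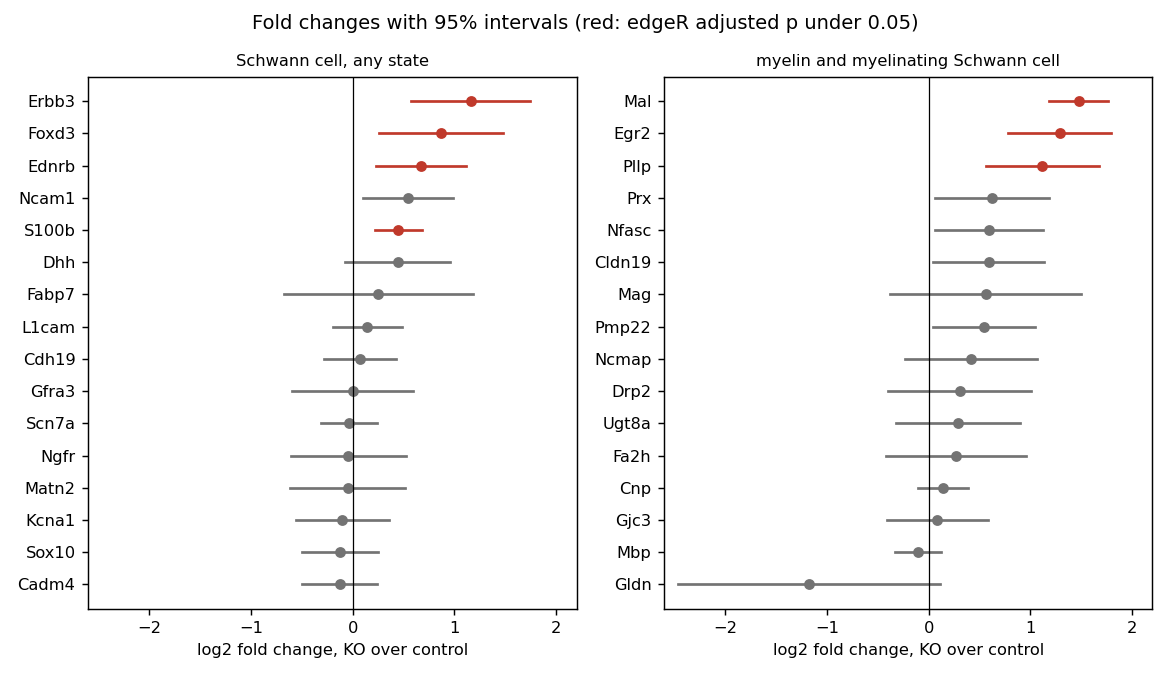
Log2 fold change of knockout over control (horizontal axis) with its 95% interval for tested genes of the Schwann cell list (left, 16 of 17 drawn) and the myelin list (right, 16 of 17 drawn), red where the edgeR adjusted p is under 0.05. Mal has the highest value of the myelin list at 1.47, while Sox10, Cdh19, Ngfr and the upstream Mbp row lie between -0.13 and 0.07. The classic Mbp row, at 0.35, is not drawn.

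Of 20 genes of myelin and myelinating Schwann cells, which include Mal and the upstream Mbp row, 17 were tested. Of these 3 were higher, 0 were lower and 14 were not called, of which 12 had a log2 fold change above 0. The median was 0.54. The higher genes are 17.6% of those tested, near the 15.4% of all genes. At an unadjusted p under 0.05 edgeR had 8 higher and 0 lower, with 21.2% of all genes higher, and DESeq2 called 6 higher and 0 lower, with 18% of all genes higher. Besides Mal the higher genes were Egr2, the zinc finger factor that drives myelination, and Pllp, plasmolipin, a myelin proteolipid of the same tetraspan family as Mal. Egr2 had 2.92 to 4.89 CPM in knockouts and 1.29 to 1.92 CPM in controls (1.29 on the log2 scale, SE 0.226, adjusted p = 0.00306 by edgeR). Egr2 is also an immediate early gene that macrophages and fat cells can switch on. Pllp had 3.51 to 6.62 CPM in knockouts and 1.55 to 2.38 CPM in controls (1.12 on the log2 scale, SE 0.246, adjusted p = 0.00852 by edgeR). Its value is uncertain, since 50.4% of its exonic sequence is antisense to the model Gm45767 and the counts ignore strand.

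Among structural genes of peripheral myelin, Prx and Pmp22 were not called by the main test. Prx, periaxin, had 20.8 ± 6.55 CPM in knockouts and 13.5 ± 3.38 CPM in controls (log2 fold change 0.62, edgeR adjusted p = 0.0789), and the value of Pmp22 was 0.54 (edgeR adjusted p = 0.086). Both genes were singled out after their values were seen. Prx was called without knockout 516 (edgeR adjusted p = 0.0374), and Pmp22 without control 511 (0.0177). With no library left out, Prx was called by DESeq2 (0.0321), with upper quartile factors (0.0478) and with library sizes alone (0.0254). Pmp22 was then called by DESeq2 (0.0317), by limma-voom (0.0486) and with library sizes alone (0.0219). The count of higher myelin genes was 5 with upper quartile factors and 9 with library sizes alone, and it was 6 without knockout 516. Over all genes tested, 2189 were higher in the main test, 2915 with upper quartile factors, 4077 with library sizes alone and 1556 without knockout 516.

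Skeletal muscle RNA, whose tissue carries motor nerve branches, stood higher in the knockout libraries. The summed level of 16 muscle genes was 9164 to 20851 CPM in knockouts and 341 to 8199 CPM in controls, with a median log2 fold change of 1.59. Of the 16, 2 were called higher and 0 lower, which is 12.5% higher beside 15.4% of all genes. At an unadjusted p under 0.05 by edgeR 10 were higher, beside 21.2% of all genes. The Schwann cell list summed to 283 to 319 CPM in knockouts and 219 to 253 CPM in controls, with S100b its largest member. The summed level of the myelin list was 323 to 442 CPM in knockouts and 239 to 360 CPM in controls. Knockout 512 was the highest library in the myelin and muscle sums. There 12 of the 17 tested myelin genes had their highest level, but the share of all genes highest there was not computed. The muscle count rests on single libraries: it was 14 of 16 without control 514, 1 without knockout 516, and 0 without knockout 512, 513 or 515 or control 511 or 517. By limma-voom with sample weights it was 16 of 16. Control 514, with the lowest muscle sum, had a myelin sum of 321 CPM, the second highest of the controls. The part of muscle-associated nerve in the myelin values was not tested. For Mal, the log2 fold change without knockout 512 was 1.40 (edgeR adjusted p = 0.000715).

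**Figure D3:**
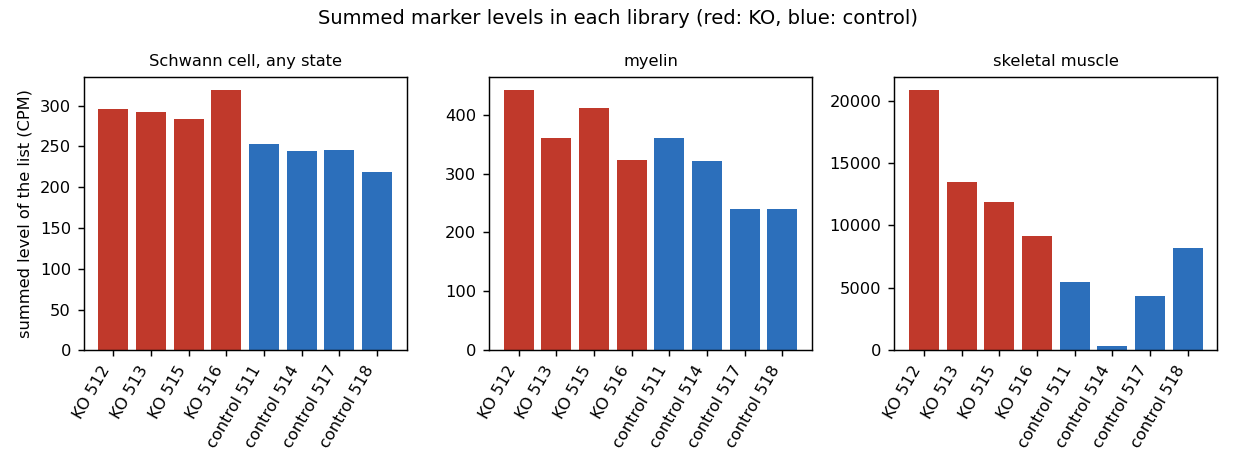
Summed level in CPM (vertical axes, starting at 0) of the Schwann cell, myelin and skeletal muscle lists in each library, knockouts in red on the left and controls in blue on the right of each panel. Knockout 512 has the highest myelin sum (442 CPM) and the highest muscle sum (20851 CPM), and control 514 the lowest muscle sum (341 CPM).

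Markers of other cells that make members were also read. T cells, which make Mal and golli transcripts, were represented by 7 genes of a list of 8. Of these 5 were tested and none was called by edgeR or DESeq2, beside 34.4% of all genes called by edgeR. At an unadjusted p under 0.05 edgeR had 0. The 5 tested genes all had log2 fold changes below 0 (median -0.36). The T cell sum was 3.91 to 6.06 CPM in knockouts and 2.57 to 12.7 CPM in controls, the largest member being Lck at 1.57 ± 0.423 CPM in knockouts and 1.79 ± 1.35 CPM in controls (SD, n = 4 each). Of 8 oligodendrocyte markers 5 were too low to test, with no count of Opalin in any library, 4 counts of Mog in knockouts and 6 in controls, and at most 2 counts in a group for Olig2, Mobp and Nkx2-2. The list summed to 97.3 to 138.1 CPM in knockouts and 173.9 to 217.9 CPM in controls, most of it from Cspg4, at 111.8 ± 17.0 CPM in knockouts and 187.6 ± 19.3 CPM in controls (SD, n = 4 each). Of the 3 tested, 1 was higher and 1 lower (33.3% each), beside 15.4% higher and 18.9% lower of all genes. The higher gene was Olig1, at 7.07 ± 1.40 CPM in knockouts and 2.07 ± 1.06 CPM in controls (edgeR adjusted p = 0.0081). Of its exonic sequence 7.26% is antisense to Gm15966. Cspg4, which pericytes and other stromal cells also make, was lower (log2 fold change -0.75). Of 7 markers of melanocytes, which also make Sox10, 3 were tested, with 0 higher and 1 lower, beside 18.9% of all genes lower. The list summed to 48.2 to 57.8 CPM in knockouts and 42.3 to 173.7 CPM in controls. The log2 fold changes of the 2 tested genes not called were -0.34 and 0.17. Tyr had no count, and the lower gene was Kit, which mast cells also make (log2 fold change -1.21, edgeR adjusted p = 0.0358). The call of Kit ended without any 1 library other than control 511 (0.06 to 0.0908), with library sizes alone (0.0661) and by limma-voom (0.0581). The parts of these cells in the members' values were not tested.

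Genes of the sheath around nerve bundles included 4 that rose. Of 10 genes of perineurium and endoneurium, 9 were tested, 4 were higher and 0 lower (median log2 fold change 0.57), beside 15.4% of all genes higher. At an unadjusted p under 0.05 there were 7 higher and 0 lower, beside 21.2% of all genes higher, and DESeq2 called 6 higher and 0 lower, beside 18%. Cldn1, the tight junction claudin of perineurial cells, had 9.98 to 17.4 CPM in knockouts and 2.47 to 3.91 CPM in controls (2.11 on the log2 scale, SE 0.233, adjusted p = 0.000458 by edgeR). The transcription factor genes Sox9 and Osr2, both also made by fibroblasts, rose by 1.29 and 0.81 (log2, adjusted p = 0.00372 and 0.0117 by edgeR), and Perp, singled out after its value was seen, rose by 1.80 (0.0117). Fibroblast and preadipocyte genes had 1 of 10 called higher and 0 lower, with a sum of 1790 to 2752 CPM in knockouts and 980 to 2106 CPM in controls. Other cell types, the endothelium, smooth muscle and pericytes, and macrophages, had 2 of 10, 1 of 9 and 4 of 9 genes higher, with 1 smooth muscle and pericyte gene and no other lower. Without 1 library the higher macrophage genes numbered 1 (knockout 515 or 516), 2 (knockout 513 or control 518), 3 (control 514 or 517), 4 (control 511) or 6 (knockout 512). With library sizes alone 8 macrophage, 6 endothelial and 5 smooth muscle and pericyte genes were higher. Of all genes 4077 were then higher, against 2189 in the main test. Higher endothelial genes numbered 4 without knockout 512 and 3 without control 517, and 1 was lower without control 511. Higher smooth muscle and pericyte genes numbered 0 without knockout 513 or 515 or control 517 and 2 without knockout 512 or control 518. Fibroblast and preadipocyte genes numbered 2 higher without knockout 513.

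Neuronal and noradrenergic genes around Th were mostly too low to test. Of 21 genes of sympathetic nerve and axon, 4 were tested, and Dbh, Npy, Hand2, Snap25 and Syt1 had no library with a count above 0.5. A total of 3 counts over a group would be 0.029 CPM in knockouts and 0.030 CPM in controls. Dbh, the enzyme after Th and Ddc on the way to noradrenaline, is among these 5, and Ddc had 1 count in knockouts and 0 in controls. Of the 4 tested, 1 was higher (25%) and 0 were lower, beside 15.4% higher and 18.9% lower of all genes. The called gene was Uchl1, a ubiquitin hydrolase of neurons, at 0.839 ± 0.235 CPM in knockouts and 0.382 ± 0.185 CPM in controls (SD, n = 4 each; edgeR adjusted p = 0.0424). Of its exonic sequence 20.7% is antisense to Uchl1os, which the counts cannot separate. Its call ended without knockout 513, 515 or 516 or control 511, 514 or 517 (0.0565 to 0.112) and without the filter on low counts (0.0544). Stmn2, a protein of growing axons, had a log2 fold change of -0.10 (edgeR adjusted p = 0.757) and Phox2a, a factor of noradrenergic neurons, had -0.38 (0.234).

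Genes that handle catecholamines and the Th cofactor tetrahydrobiopterin, most of which fat cells themselves express, included 5 lower and 1 higher. Of 15, 9 were tested, with a median log2 fold change of -0.31. Of all genes 18.9% were lower and 15.4% higher. Brown adipocyte genes moved with these: of 10, 5 were lower and 0 higher, with 0 higher also at an unadjusted p under 0.05 and by DESeq2. Their sum was 11798 to 13442 CPM in knockouts and 17783 to 24084 CPM in controls, and their part in the catecholamine values was not tested. The lower brown adipocyte genes numbered 2 without knockout 513, and 3 without knockout 516 or with library sizes alone. Qdpr, which recycles the cofactor, fell by 0.41 (edgeR adjusted p = 0.00253), and 24.1% of its exonic sequence is antisense to Gm42413. That call ended with library sizes alone (0.0602). Maoa, an amine oxidase, was the higher gene, at 26.5 ± 1.18 CPM in knockouts and 20.8 ± 1.35 CPM in controls (log2 fold change 0.35, edgeR adjusted p = 0.00822).

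Further lower genes, singled out after their values were seen, were Maob (-0.31), Pts (-0.32) and Spr (-0.21). The call of Maob ended without knockout 513 (0.0544), that of Pts without knockout 513 or 515 or control 514 (0.0525 to 0.0686), and that of Spr without knockout 513, 515 or 516 or control 511, 514 or 518 (0.056 to 0.121). With library sizes alone 1 gene of the list was lower and 2 were higher, while 930 of all genes were lower and 4077 higher. Slc18a2, the vesicular monoamine transporter, had 2.40 ± 0.215 CPM in knockouts and 2.37 ± 0.134 CPM in controls (SD, n = 4 each). Slc6a2, the noradrenaline transporter of sympathetic axons, had 11 counts in knockouts and 16 in controls.

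Ligands and receptors of the neurotrophin, GDNF and neuregulin families, to which Ngfr belongs, went both ways. Of 21, 17 were tested, of which 3 were higher, 2 lower and 12 not called (median log2 fold change 0.12). The higher genes are 17.6% of those tested, near the 15.4% of all genes. The lower genes are 11.8%, beside 18.9% of all genes. Sort1, the sortilin coreceptor of Ngfr, singled out after its value was seen, had a log2 fold change of -0.01. Besides Erbb3, Ntrk3, a neurotrophin receptor, had 512 to 551 CPM in knockouts and 275 to 457 CPM in controls (log2 fold change 0.46, edgeR adjusted p = 0.0338). That call ended without knockout 512, 513, 515 or 516 or control 517 (0.0601 to 0.0821).

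Nrg4, a neuregulin secreted by brown fat, with 8.61% of its exonic sequence antisense to Fbxo22, had 82.1 ± 11.1 CPM in knockouts and 127.8 ± 13.4 CPM in controls (SD, n = 4 each; -0.64 on the log2 scale, SE 0.111, adjusted p = 0.00293 by edgeR). The remaining calls, singled out after their values were seen, were Ntf5 (1.80) and Nrtn (-0.44). That of Ntf5 ended without knockout 512, 513 or 515 or control 511 or 517 (0.056 to 0.0845), and that of Nrtn without knockout 513, 515 or 516 or control 514 or 518 (0.0942 to 0.118). Nrg1, the axonal ligand of Erbb3, had no count in any library.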

How the data were processed

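RNA was sequenced from brown adipose tissue of mice in 8 samples. Reads were aligned to mm10 with TopHat2, per the submitters' processing notes. The notes list HOMER and edgeR as well. The authors' estimated counts came from HOMER over RefSeq exons on both strands, unadjusted, per the file headers. They are multiples of 0.5, with 36.9% not whole, and were rounded. The 829 rows without a symbol (0.0608% to 0.0824% of counts) were left out. The count table also gives transcript length, per the file headers. The authors' deposited table holds scaled counts (a signal), the fold (ratio), p-value and FDR, and log2 CPM and log2 fold change. Its header names control before knockout, while its signs run knockout over control.

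Genes passing filterByExpr (minimum count 10) entered edgeR's quasi-likelihood test (version 4.0.16, R 4.3.3), two-sided, 4 knockouts against 4 controls, without covariates. The test was also run on counts simulated with the spread it had fitted itself. Such a run cannot show whether its model holds for these libraries. SE is the log2 fold change divided by the root of F, an approximation. TMM factors were 1.05 to 1.10 in knockouts and 0.898 to 0.961 in controls. No pair of libraries agreed within sampling noise (lowest chi-square per degree of freedom 12.4 in knockouts and 50.2 in controls). The labels name no batch. Alternatives used other scalings, no filter, DESeq2 1.42.0, limma-voom 3.58.1, the longest transcript and leaving out each library. Every limma-voom result given used sample weights. Exon overlaps come from GENCODE on GRCm38, the same assembly as mm10, and promoters from RefSeq.

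The members and lists were chosen with earlier results of these data known. Named genes were the members, Kdm1a, at most 3 genes a list by ascending p, and the 3 nearest to each member with a mean of at least 0.5 CPM (log2 CPM, prior count 2). Named outside this rule were Slc18a2, untested genes such as Dbh, Ddc, Slc6a2 and Nrg1, and the genes said to be singled out. Counts are depth-limited and intervals on counts cover counting error only. A few list genes are counted in their lists but not reported by name here.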

Additional observations from a re-analysis of the deposited data

Results flagged for a closer look

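Among 24 groups of 4 libraries checked for a library far from the others (the 6 members, the classic Mbp row and the summed levels of 5 lists, in knockouts and in controls), 1 was flagged, and chance flags about 1 in 20. The summed level of the neurotrophin and glial ligand and receptor list was 1043 CPM in control 518, the lowest of the controls, whose highest was 1180 CPM. The knockouts held 1112 to 1246 CPM.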

How the results depend on the processing

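The rise of Mal kept its direction and its call under every alternative run, with log2 fold changes of 1.40 to 1.56 when a library was left out and 1.41 to 1.67 otherwise. Sox10, Mbp, Cdh19 and Ngfr were never called, but signs turned with upper quartile factors for Mbp (0.00125) and Ngfr (0.0562), with library sizes alone for Sox10 (0.0744), Mbp (0.0923) and Ngfr (0.15), and with the classic transcript row for Mbp (0.35). The median log2 fold change over all genes shifted by 0.103 under upper quartile factors and by 0.198 under library sizes. Leaving out a library gave -0.22 to -0.02 for Sox10, -0.15 to 0.02 for Mbp (0.016 without control 518), -0.03 to 0.17 for Cdh19 (-0.0269 without knockout 513) and -0.22 to 0.13 for Ngfr (0.05, 0.09 and 0.13 without knockout 515, control 514 and control 517). The cause of these turns was not tested.

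Higher myelin genes numbered 3, but 5 with upper quartile factors, 9 with library sizes alone and 6 by DESeq2. Lower catecholamine genes numbered 5, but 2 with upper quartile factors and 1 with library sizes alone, and higher ones 2 with library sizes alone or without the filter. Lower neurotrophin genes numbered 1 with relative log expression factors, upper quartile factors, library sizes alone or no filter. Over all genes, 2189 were higher and 2682 lower, with 1625 lower under upper quartile factors (2915 higher) and 4077 higher and 930 lower with library sizes alone. Leaving out a library gave 2 to 4 higher Schwann cell genes, 3 to 6 higher and 0 to 1 lower myelin genes, 0 to 1 higher axon genes, 2 to 6 lower catecholamine genes, 1 to 4 higher and 1 to 2 lower neurotrophin genes, and 1527 to 2260 higher and 1900 to 2655 lower of all genes. Depth limits Th and the axon genes, of which 4 of 21 were tested. No paired analysis was possible because the knockout and control libraries share no replicate number.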
